A study of Caenorhabditis elegans with 6 samples.

Results

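The genes rpl-11.1 and rpl-11.2 of Caenorhabditis elegans both encode L11, a protein of the large cytosolic ribosomal subunit, and together they are the 2 members described here, of 5792 genes in the deposited table. They were found by their names in that table, and they were chosen by their measured levels, which differed in opposite directions between TGQ and WT animals in earlier work on these same values. Their own difference between the groups is therefore given as a description, with no test. L11 sits at the top of the large subunit and is brought there in a particle with ribosomal protein L5 and the 5S ribosomal RNA. In mammals the free form of this particle also binds the p53 regulator MDM2. In C. elegans the autosomal copy, rpl-11.1, is known from mutants as needed for germ cell proliferation, while genes on the X chromosome, where rpl-11.2 lies, are largely silent in the germ line.

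Polyadenylated RNA of whole L4 larvae, the last larval stage, was sequenced in 3 WT and 3 TGQ samples. The strain given for WT is SJ4100, known as a strain with a GFP reporter under the hsp-6 promoter, and that given for TGQ is TGQ alone. The labels give neither the meaning of TGQ nor its derivation, nor whether it shares the reporter. Both groups grew from hatching on OP50 bacteria at 20 °C, and the series concerns inherited increases of mitochondrial DNA. The table holds only genes that had passed the authors' own test between these groups (adjusted p-values of up to 0.0499, per the authors' deposited table). The unit of its values is not named, and its summed value was 327792 to 349508 per WT sample and 282762 to 293887 per TGQ sample. This sum covers only the listed genes, so it is not a library total and is itself shaped by their changes. Nothing in the labels states that replicates are separate cultures, so every SD and p-value covers only the spread of these samples, and that spread may be technical.

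In WBcel235 (the build used by the authors was not stated) rpl-11.1, WBGene00004422, lies on the minus strand of chromosome V at 3585312 to 3586064. Its paralog rpl-11.2, WBGene00004423, lies on the minus strand of chromosome X at 2241738 to 2242618. Both copies encode 196 amino acids in 591 bases including the stop codon. The first coding exons are 135 bases in both genes and the next are 216 bases in both. The remaining 237 coding bases of rpl-11.1 form a single exon, whereas in rpl-11.2 an additional intron of 47 bases divides them into 177 and 60. The annotated 3′ UTR has 57 bases in rpl-11.1 and 138 bases in rpl-11.2, which brings the exonic lengths to 654 and 731 bases. A second, shorter transcript of rpl-11.1 is annotated with 62 codons. No annotated gene overlaps either copy on any strand, and of their nearest protein-coding neighbours only vha-15, beside rpl-11.2, is in the table. The sources used here do not say how reads matching both copies were assigned, so the split between the copies is less certain than their sum.

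**Figure D1:**
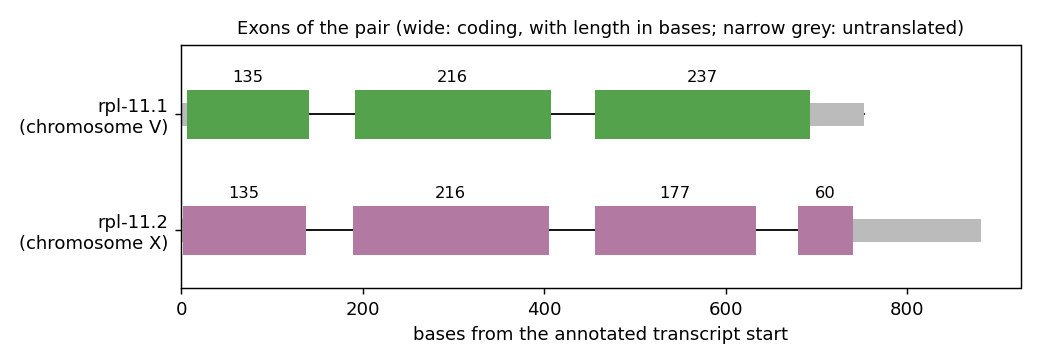
Exon structure of rpl-11.1 (top) and rpl-11.2 (bottom) in WBcel235, in bases from the annotated transcript start. Wide boxes are coding, with their lengths in bases, and narrow grey boxes are untranslated. The first 2 coding exons have equal lengths in both genes, and the 237 bases of the last one in rpl-11.1 are divided into 177 and 60 bases in rpl-11.2.

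Expression of rpl-11.1 was lower in TGQ than in WT. Its values were 1919.69, 1865.83 and 1775.87 in WT replicates 1 to 3 and 1473.87, 1413.62 and 1396.42 in TGQ replicates 1 to 3. All TGQ samples lay below all WT samples, and the lowest WT value was 302 above the highest TGQ value. The means were 1854 ± 72.7 (SD, n = 3) in WT against 1428 ± 40.7 in TGQ, a ratio of 0.77. On the log2(value + 1) scale the difference of TGQ minus WT was -0.38 (SE 0.04, from the spread of the samples).

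Expression of rpl-11.2 was higher in TGQ. Its values were 1214.63, 1446.12 and 1498.92 in WT replicates 1 to 3 and 1919.40, 2106.22 and 2090.63 in TGQ replicates 1 to 3. Here too the groups did not overlap, with the lowest TGQ value 420 above the highest WT value. The means were 1387 ± 151 (SD, n = 3) in WT against 2039 ± 104 in TGQ, which is 1.47-fold (log2 0.56, SE 0.10). Relative spread was larger for this copy, with a coefficient of variation of 10.9% in WT and 5.08% in TGQ, against 3.92% and 2.85% for rpl-11.1. WT replicate 1 was the lowest of the WT samples for rpl-11.2 and the highest for rpl-11.1. Non-overlapping groups are the rule in this preselected table, where 91.2% of the 5540 genes with enough expression to be tested had them, 44% higher and 47.2% lower in TGQ, so nothing is read from them for the pair.

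**Figure D2:**
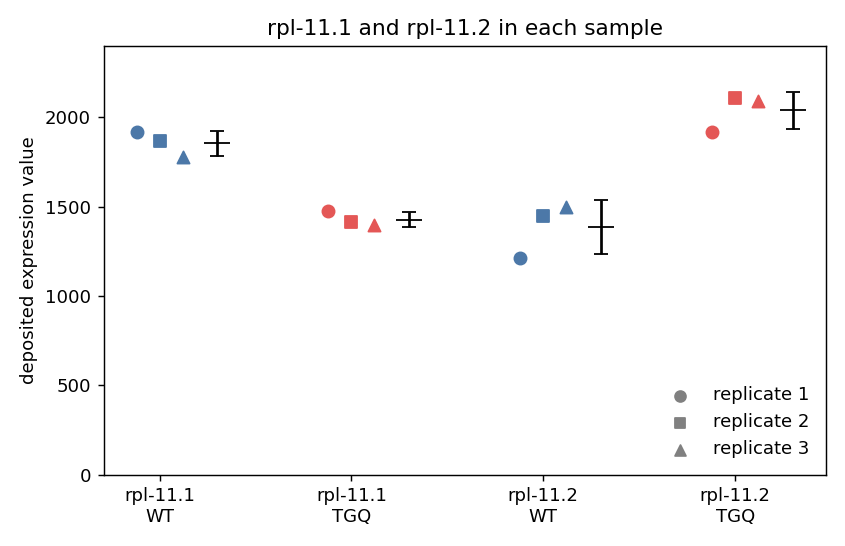
Deposited expression values of rpl-11.1 and rpl-11.2 in the 3 WT (blue) and 3 TGQ (red) samples, with symbols for the replicate numbers and the mean ± SD beside them in black. The order of the copies is reversed between the groups, with rpl-11.1 above rpl-11.2 in every WT sample and below it in every TGQ sample.

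The 4 levels fell into a higher and a lower pair. On the deposited scale, not corrected for exonic length, TGQ rpl-11.2 had the highest mean, followed by WT rpl-11.1, TGQ rpl-11.1 and WT rpl-11.2. This order across the groups depends on scaling. The top 2 were not separated, since the lowest TGQ value of rpl-11.2, 1919.40, lay under the highest WT value of rpl-11.1, 1919.69. The bottom 2 overlapped as well, with rpl-11.1 at 1396 to 1474 in TGQ and rpl-11.2 at 1215 to 1499 in WT. Both copies were among the most highly expressed genes listed. By mean value rpl-11.1 ranked 16 in WT and 27 in TGQ, and rpl-11.2 ranked 37 in WT and 11 in TGQ.

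The predominant copy was reversed between the groups. The share of rpl-11.1 in the summed value of both genes was 61.2%, 56.3% and 54.2% in WT replicates 1 to 3 and 43.4%, 40.2% and 40.05% in TGQ replicates 1 to 3. The mean share was 57.3% ± 3.60 (SD, n = 3) in WT against 41.2% ± 1.92 in TGQ, a difference of -16.1 percentage points (SE 2.36). The value of rpl-11.2 divided by that of rpl-11.1 was 0.633 to 0.844 in WT and 1.302 to 1.497 in TGQ. This ratio is formed within a sample and does not move with a scale factor of the sample. If the deposited values are not per length, dividing them by the exonic lengths gives shares of 59.96% and 43.9%, so the reversal remains.

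On the deposited scale the sum of the pair differed less than either copy. The summed value was 3134.32, 3311.95 and 3274.79 in WT and 3393.27, 3519.84 and 3487.05 in TGQ, with means of 3240 ± 93.7 (SD, n = 3) and 3467 ± 65.7, a ratio of 1.07. Although every TGQ sum was above every WT sum on the deposited scale, this order depends on scaling. With the scaling of the authors' own test the sum was 3140 in TGQ against 3240 in WT, and the ranges of 3074 to 3188 and 3134 to 3312 overlapped. With each sample divided by its summed value the pair was at 3013 in WT and 3759 in TGQ, and after quantile normalization at 3042 and 3595, so on those scalings the sum differed more and its size is not settled. In the authors' test, as given in the authors' deposited table, the log2 changes were -0.52 for rpl-11.1 and 0.41 for rpl-11.2.

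**Figure D3:**
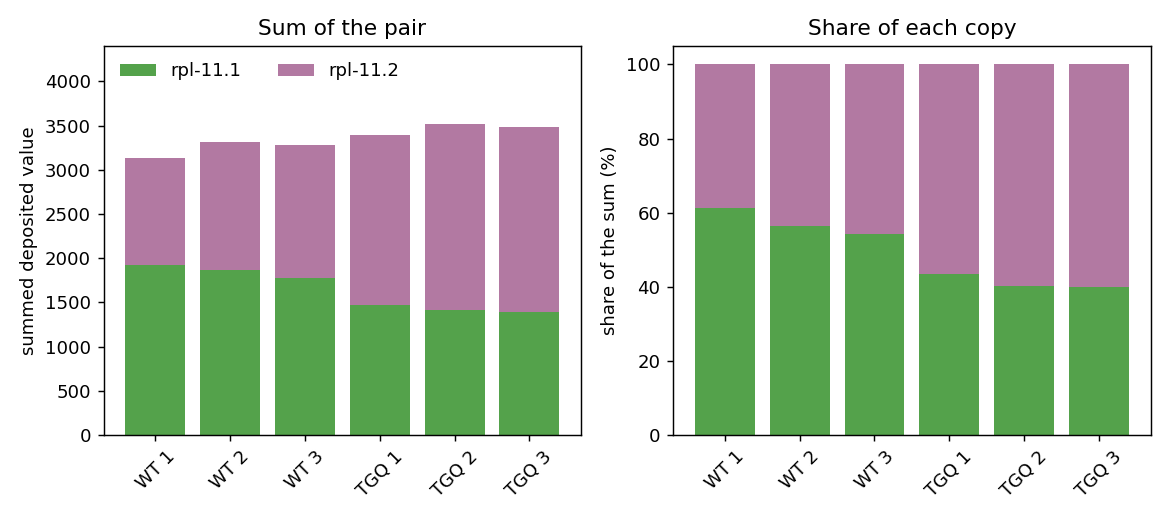
Left, the deposited values of rpl-11.1 (green) and rpl-11.2 (purple) stacked to their sum in each of the 6 samples. Right, the same as a share of the sum in percent, where rpl-11.1 takes 54.2% to 61.2% in WT and 40.05% to 43.4% in TGQ.

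Over all genes tested the median log2 change was -0.22, so relative to the table rpl-11.1 was lower by a log2 difference of -0.15 and rpl-11.2 higher by 0.78. Of these genes, 40.6% had a lower log2 change than rpl-11.1 and 71.1% a lower one than rpl-11.2. The change of rpl-11.1 thus lay near the middle of the table. On other scalings the change of rpl-11.1 ran from -0.52 to -0.15 and that of rpl-11.2 from 0.42 to 0.79, without a change of direction.

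Few other cytosolic ribosomal protein genes were in the table. Of 84 annotated genes, 4 were listed, namely the pair, rpl-25.2 and rpl-42, and both genes besides the pair were called lower by limma, against 44.6% of the genes tested that were called lower and 45.6% called higher. A call here is a Benjamini-Hochberg adjusted p under 0.05 in limma over all 5540 genes tested, which 90.2% of them reached. These genes were preselected by the authors' test of the same samples, so limma's adjusted p-values throughout order the genes and are not error rates. The gene rpl-25.2, encoding ribosomal protein L23a, had values of 2390, 2572 and 2440 in WT and 1956, 2024 and 2067 in TGQ (log2 -0.29, SE 0.07, adjusted p = 0.00349, limma). That fall was not called when each sample was divided by its summed value (log2 -0.07, adjusted p = 0.455). The gene rpl-42 was expressed at a far lower level, 10.3 ± 2.29 (SD, n = 3) in WT and 4.28 ± 0.526 in TGQ (log2 -1.08, SE 0.17, adjusted p = 0.000423, limma).

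The pair belongs to a small set of C. elegans translation genes with an autosomal and an X-linked copy, and 3 further copies of this kind were in the table. The X-linked copies rose and the autosomal one fell. The X-linked eef-1A.2, encoding translation elongation factor 1-alpha, had values of 452, 468 and 531 in WT and 826, 918 and 848 in TGQ (log2 0.84, SE 0.09, adjusted p = 5.94e-05, limma). The X-linked pab-2, encoding a poly(A)-binding protein, went from 24.3 ± 3.82 (SD, n = 3) to 35.7 ± 2.86 (log2 0.55, SE 0.14, adjusted p = 0.00555, limma). On chromosome I, rpl-25.2 fell, as given above. Their partners eef-1A.1 on chromosome III, pab-1 on chromosome I and rpl-25.1 on the X chromosome were not in the table and are not analysed here, so L11 is the one protein of this set for which both copies could be compared. The pairs were chosen with the change of rpl-11.1 and rpl-11.2 known.

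**Figure D4:**
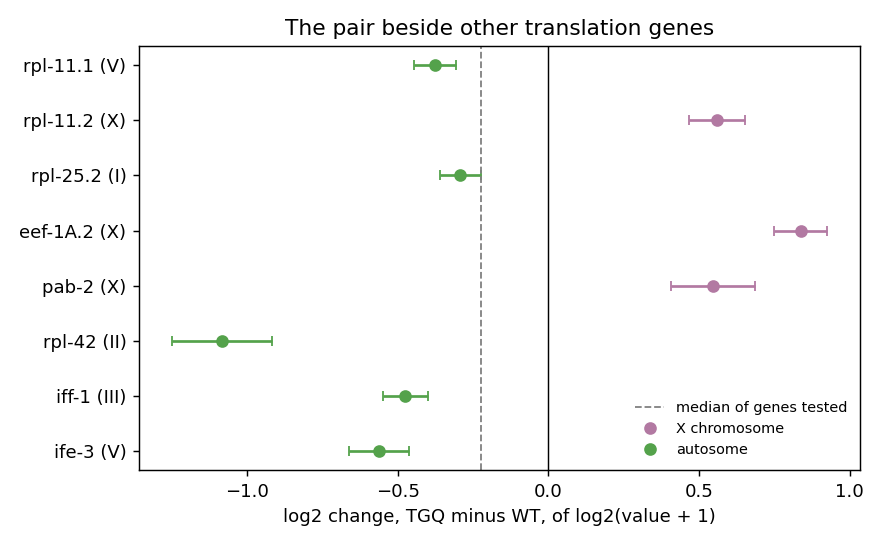
Log2 change of TGQ minus WT, with limma's SE, for rpl-11.1, rpl-11.2, the listed copies of duplicated translation genes, rpl-42, iff-1 and ife-3, with the chromosome in brackets. Of these genes the X-linked ones (purple) lie above 0 and the autosomal ones (green) below it, but the genes drawn are a selection. Of 13 translation factors tested, 9 were called higher and 2 lower. Both lower ones, iff-1 and ife-3, are drawn, and of the higher ones only eef-1A.2 and pab-2. Autosomal translation genes with positive changes, such as mrps-31 (0.81) and pro-3 (0.74), are not drawn, and the dashed line marks the median of the genes tested, -0.22.

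Other genes of translation and of ribosome biogenesis went both ways. Over all genes tested 45.6% were called higher and 44.6% lower. Of 38 annotated translation factors 13 were tested, of which 9 were called higher and 2 lower (median log2 change 0.38, against -0.22 over all genes tested). With the authors' scaling the counts of translation factors were 5 and 4, beside 2180 higher and 2914 lower of all 5540 genes tested. The calls lower were those of iff-1, which encodes an eIF5A known to be needed for germ cell proliferation, and ife-3, which encodes an eIF4E. The level of iff-1 was close to that of rpl-11.1 on the deposited scale, at 1632, 1620 and 1500 in WT and 1202, 1125 and 1093 in TGQ (log2 -0.47, SE 0.08, adjusted p = 0.000494, limma). The value of ife-3 averaged 129 ± 12.7 (SD, n = 3) in WT against 86.95 ± 2.18 in TGQ (log2 -0.56). Of 36 genes of ribosome biogenesis and its regulation 4 were tested, and no direction of ribosome assembly is read from their calls. Among them pro-3 and ncl-1 were called higher and ZK265.6, which is nol-16 in WBcel235, lower, each of which lost its call under several alternatives, the authors' scaling included for pro-3 and ncl-1. The ribosomal proteins of mitochondria, a separate ribosome, were mostly higher, with 21 of 22 tested genes called higher and 0 lower (median 0.47), including mrps-31 at 1.75-fold and mrpl-45 at 1.65-fold on the log2(value + 1) scale. With the authors' scaling 19 were called higher and 1 lower.

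Genes of the X chromosome, where rpl-11.2 lies, were mostly higher in TGQ. Of 852 X-linked genes tested, 75.1% were called higher and 21.01% lower, with a median log2 change of 0.56, equal at this precision to the change of rpl-11.2 itself. Of 4672 autosomal genes, 40.05% were called higher and 49.1% lower, with a median of -0.30. On chromosome V, where rpl-11.1 lies, the median was -0.21 over 1052 genes, and rpl-11.1 lay below it. With the authors' scaling the medians were 0.42 for X-linked and -0.44 for autosomal genes. With each sample divided by its summed value the X-linked median was 0.75, and the balance of autosomal calls turned, with 40.7% higher and 34.9% lower and a median of -0.09. The change of rpl-11.2 on these scalings was 0.42 and 0.78. Both scalings apply the same factor to all genes of a sample, so they move rpl-11.2 and the X-linked median nearly alike. They therefore cannot show whether the match holds, and it was not kept in every other setting. After quantile normalization rpl-11.2 was at 0.79 against an X-linked median of 0.63. Without WT replicate 1 it was at 0.47 against 0.62.

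**Figure D5:**
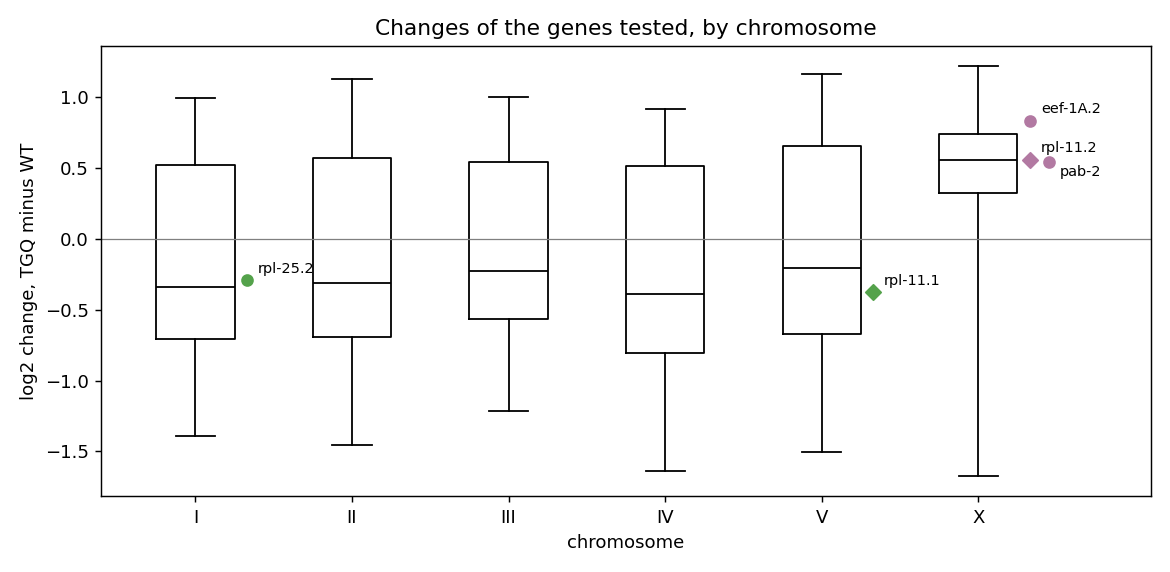
Log2 change of TGQ minus WT of the genes tested on each chromosome. Boxes show the quartiles with the median, and whiskers run from percentile 5 to 95. Diamonds mark rpl-11.1 on chromosome V and rpl-11.2 on the X chromosome, and circles mark rpl-25.2, eef-1A.2 and pab-2. On the deposited scale the X-linked median is 0.56, beside rpl-11.2, a match that was not kept after quantile normalization.

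Oocyte and sperm transcripts were lower in the same TGQ samples, whereas the count for genes of mitotic and meiotic germ cells depended on scaling. In bulk RNA, fewer cells of a type and less RNA per cell cannot be told apart. Of 15 tested genes of mitotic and meiotic germ cells 9 were called lower, among them mex-3 (log2 -1.22) and the RNA-binding regulator gld-1 (log2 -1.004), and 1 higher, mes-3 (log2 0.54), against 44.6% called lower over all genes tested. Under the authors' scaling 14 were called lower, and after division by the summed value 4 of 15 were, beside 1770 of all 5536 genes tested there, so on that scaling they were not more often lower than the table. The summed value of these 15 genes, of 37 annotated, was 584 to 799 in WT and 408 to 480 in TGQ. Of 29 oocyte and eggshell genes 28 were called lower and 0 higher, with the largest falls in perm-2 (log2 -2.72) and perm-4 (log2 -2.46), and their sum was 1694 to 2309 in WT and 445 to 642 in TGQ. All 35 sperm genes tested were called lower, led by msp-55 (log2 -1.87) and msp-113 (log2 -1.81), with sums of 10973 to 13585 in WT and 3624 to 4483 in TGQ. No gene of these lists was at 0 in any sample. The median log2 change was -0.37 in the mitotic and meiotic list, close to the -0.38 of rpl-11.1, and -1.46 and -1.57 in the oocyte and sperm lists. That closeness was not kept in every refit, since without WT replicate 2 the mitotic and meiotic median was -0.48 and rpl-11.1 was at -0.37. Changes near that of rpl-11.1 were also common in the table. In each group replicate 1 had both the highest share of rpl-11.1 in the pair (61.2% in WT, 43.4% in TGQ) and the highest oocyte sum (2309 in WT, 642 in TGQ). Replicate 1 of each group also had the highest intestine sum (897 in WT, 919 in TGQ). Its summed value of all listed genes was the highest as well (349508 in WT, 293887 in TGQ). The mitotic and meiotic sum and the sperm sum were likewise highest in replicate 1 of each group. The other somatic lists did not share this order in both groups. Replicate 1 had the lowest hypodermis sum in WT (363) and the lowest neuron sum in TGQ (78.6), and the highest muscle sum in TGQ was in replicate 2 (371). In the opposite group, replicate 1 had the highest sum for each of these lists. The part of germ line content in the levels of the pair was not tested.

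The somatic markers in the table were mostly called higher, against 45.6% called higher over all genes tested. The table held 6 of 15 annotated muscle genes, 5 of 16 neuron genes, 10 of 15 hypodermis genes and 5 of 14 intestine genes. Of the body wall muscle list 6 of 6 tested genes were called higher, including unc-22 (log2 0.99, its groups overlapping) and ttn-1 (log2 0.93). With the authors' scaling 4 of 6 were called higher, beside 2180 of all 5540 genes tested. The summed value of the 6 genes was 234 to 286 in WT and 326 to 371 in TGQ. All 5 neuron genes tested were called higher, with snt-1 and unc-10 at log2 changes of 0.75 and 0.74 and sums of 42.1 to 57.0 in WT and 78.6 to 79.9 in TGQ. All 10 hypodermis genes were called higher, with the largest rises in dpy-17 (log2 2.56) and grd-10 (log2 1.70) and sums of 363 to 573 and 1098 to 1219. Of 5 intestine genes 4 were called higher, including pho-1 (log2 0.81) and vha-6 (log2 0.65), and cpr-6 was called lower (log2 -0.29), a change that was 0.21 and not called after quantile normalization (adjusted p = 0.0664, limma). The intestine sums of 755 to 897 in WT and 807 to 919 in TGQ overlapped. No gene of these lists was at 0 in any sample, and the part of somatic tissue in the level of rpl-11.2 was not tested.

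The genes whose profiles were most like those of the copies were found by the root mean square difference over the 6 samples, in log2(value + 1) centred on each gene's mean. For rpl-11.1 these were sqv-7 (0.0283), W03C9.5 (0.0309), unc-69 (0.0315), kbp-5 (0.0319) and cfim-1 (0.033). All are autosomal, as are 4672 of the 5540 genes tested. For rpl-11.2 they were best-8 (0.0294), the collagen genes col-103 (0.0373) and col-98 (0.0415), the lactate dehydrogenase gene ldh-1 (0.0388) and the X-linked F48F7.6 (0.0406). The distance between rpl-11.1 and rpl-11.2 themselves was 0.489. The place of best-8 rests on values so low that the pseudocount of 1 compresses them, since with a pseudocount of 0.1 its log2 change was 0.78 in place of 0.56. All of these genes were expressed at far lower values than the pair, from 1.31 to 3.12 for best-8 to 254.79 to 421.17 for col-103. Profiles like that of rpl-11.1 were common in the table, with 338 genes within 0.1 of it, and 108 genes were within 0.1 of rpl-11.2.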

How the data were processed

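Per the submitters' processing notes, TopHat2 and RSEM were used, with no version or role stated, and the sources used here do not give the genome build, the annotation or the test tool. The deposited table gives an expression signal per gene and sample with 2 decimals, of unnamed unit, that is not a read count, so depth is unknown and no counting interval is given. It also holds the authors' mean signal per group, the fold change (ratio of TGQ to WT), its log2 as deposited, and the authors' p-value and adjusted p-value. Samples were grouped by title. The planned test for normalized values was used: limma 3.58.1 in R 4.3.3 on log2(value + 1), with group as the single term and trend and robust options, over the 5540 genes that reached a value of 1 in 3 or more samples. Fold changes on this scale understate the change of low genes. The authors' scaling was imitated by shifting TGQ by -0.143 on the log2 scale, the gap between the median deposited and computed changes. Gene IDs of 5789 table genes matched Ensembl release 115 (WBcel235), which also set the numbers of annotated list members. The members and all lists were chosen with earlier results of these data known. Named genes were the pair, listed cytosolic ribosomal and duplicated translation genes, the 5 genes most like each copy, and the 2 largest called rises and falls of each other list. Alternatives were another pseudocount (0.1), other filters, other scalings, a replicate block and leaving out each sample.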

Additional observations from a re-analysis of the deposited data

How the results depend on the processing

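Scaling moved the values of the pair, and no other setting did so by more than 1 SD of the replicates. The log2 change of rpl-11.1 was -0.52 with the authors' scaling, -0.15 with each sample divided by its summed value and -0.26 after quantile normalization, in place of -0.38. That of rpl-11.2 was 0.42, 0.78 and 0.79, in place of 0.56. These scalings moved the median of all genes by -0.14, 0.22 and 0.12. The TGQ minus WT difference of the summed pair was 226, and 746 divided by the summed value, 553 after quantile normalization and -100.05 with the authors' scaling, the last 2 chosen after seeing the data. Division by the summed value left 1 of 2 other cytosolic ribosomal protein genes called, and the cause was not tested for this, for the sum or for cpr-6. With single samples left out, the change of rpl-11.1 ran from -0.41 to -0.35, that of rpl-11.2 from 0.47 to 0.62, the share difference from -17.6 to -14.1 percentage points and the sum difference from 173 to 263. The duplicated translation genes kept 3 calls in every one of these refits, and 2 when each sample was divided by its summed value. Samples of the same replicate number deviated together in 2 of 3 pairs (correlations of 0.247, -0.0115 and 0.16), so the numbers were not taken to pair them, and TGQ replicate 3 correlated best with WT replicate 2 (0.165). With a replicate block 5137 genes were called in place of 4998. Without limma's trend and robust options 4982 were called. Among the 37 other named genes, 451 of 479 alternative values kept the call and direction, 27 lost the call and 1 was reversed, cpr-6 after quantile normalization (0.21). The depth is unknown, and genes outside the table were not analysed here.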

Other observations

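Beyond the genes named as ribosomal proteins, the deposited table gives 3 further genes the orthology term of a cytosolic ribosomal protein, picked here after their values were seen. All were expressed far below rpl-11.1 and rpl-11.2. ZK686.1, with the term for L30, had values of 70.3, 76.02 and 66.1 in WT and 50.7, 49.9 and 57.7 in TGQ (log2 -0.42, SE 0.11, adjusted p = 0.00539, limma). T07A9.14, with the term for S24, averaged 64.9 ± 2.91 (SD, n = 3) in WT against 56.3 ± 1.10 in TGQ, and it was not called (adjusted p = 0.0641, limma), although its groups did not overlap. B0250.7, with the term for L8, was at 4.92 ± 1.74 and 3.86 ± 0.492 and was not called (adjusted p = 0.24, limma). Like all listed genes, T07A9.14 and B0250.7 had passed the authors' own test, so for them the 2 tests differ.

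The pair made up a larger part of the listed expression in TGQ than in WT. It was 0.897% to 1.01% of the summed values in WT and 1.15% to 1.24% in TGQ, with totals of 327792 to 349508 and 282762 to 293887. These totals cover only genes that had passed the authors' test and are not library totals. They were themselves lower in TGQ on the deposited scale, so the larger part is not read as a rise of the pair.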
